A study of Arabidopsis thaliana with 12 samples.

Results

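Of the 37336 Arabidopsis thaliana genes in the count table, 69 were lower after a short auxin treatment in both genotypes of the study. They were chosen by a fixed rule on CPM (a gene's count divided by the library's total and multiplied by 1000000). A member has a mean of at least 1 CPM over the 12 libraries. In wild type, and again in the er erl2 double mutant, its mean CPM under indole-3-acetic acid (IAA) is at most 0.75 of the mock mean, and its highest IAA replicate is below its lowest mock replicate. The members make up 0.359% of the 19196 genes with a mean of at least 1 CPM. Because the IAA and mock values of both genotypes chose the genes, their lower level under IAA is given below as a description, without a test. The inverse rule, for genes raised in both genotypes, was met by 236 genes.

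The study crossed genotype with treatment, using RNA-seq of whole seedlings 3 days after germination. Wild type was the accession Col-0, and the mutant carried er-105 and erl2-1, alleles of the receptor kinase genes ERECTA and ERECTA-LIKE 2. Seedlings raised on solid MS medium were kept in liquid MS for 30 min, then given 1 uM IAA or mock for a further 30 min. All 4 groups, mock included, received 0.02% DMSO, and each group had 3 libraries. The labels do not say whether the replicates came from separate cultures or plates, so p-values measure the spread between these samples.

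IAA is the main natural auxin. It binds TIR1 and AFB receptors, which leads to the destruction of Aux/IAA repressors and frees ARF transcription factors to act on their targets within minutes. Genes that auxin raises early, such as Aux/IAA, GH3 and SAUR genes, are its best-known targets. In the root, auxin also acts with cytokinin, brassinosteroid and gibberellin on cell elongation, root hairs and lateral roots. ERECTA-family kinases receive secreted peptides and act in stomatal patterning and organ growth.

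Library totals lay between 28930625 and 35837999 counts. ERECTA was at 52.4 to 63.9 CPM in the 6 wild-type libraries and at 4.89 to 8.65 CPM in the 6 mutant libraries, and ERL2 was at 8.95 to 13.4 CPM against 2.42 to 3.96 CPM. In edgeR's quasi-likelihood test, 21 of 24 auxin-induced early genes were higher under IAA in wild type, where 1.06% of all 21376 genes tested were, and 23 of 24 in er erl2, where 1.29% were. Mock replicates differed from each other in both genotypes. In wild type, mock replicate 3 gave the lowest of the 3 values for 45 of the 69 members and replicate 2 the highest for 48. In er erl2, mock replicate 1 gave the lowest value for 46 members and replicate 3 the highest for 41. The summed level of the 24 auxin-induced genes was 1169.6 CPM in wild-type mock replicate 3, against 906 CPM in replicate 1, 720.1 CPM in replicate 2 and 707 to 784 CPM in er erl2 mock. Without wild-type mock replicate 3 the rule took 138 genes, 68 of them among the 69, and without er erl2 mock replicate 1 it took 101, again with 68 of the 69. The part of these libraries in the members' values was not tested beyond leaving each out.

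The members' IAA means were 13.1% to 74.8% of the mock means in wild type, with a median of 58.1%. In er erl2 they were 20.3% to 74.4%, with a median of 58.8%. On the log2 scale the medians were -0.78 and -0.77, beside -0.027 and -0.022 over all genes with at least 1 CPM. Members below 0.5 of mock numbered 27 in wild type, 23 in er erl2 and 20 in both genotypes. The ratio was lower in wild type for 43 members and lower in er erl2 for 26. With the same fit, 23 members were called lower under IAA in wild type, where 0.154% of all genes were, and 22 in er erl2, where 0.243% were. Since the rule used these contrasts, nothing is read from those counts. The rule was met by 309 genes in wild type and 379 in er erl2, so the members are 22.3% of the former and 18.2% of the latter. A further 119 genes met the level and ratio limits in both genotypes but had overlapping replicates. In whole seedlings, fewer cells of a type and less RNA per cell cannot be told apart.

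**Figure D1:**
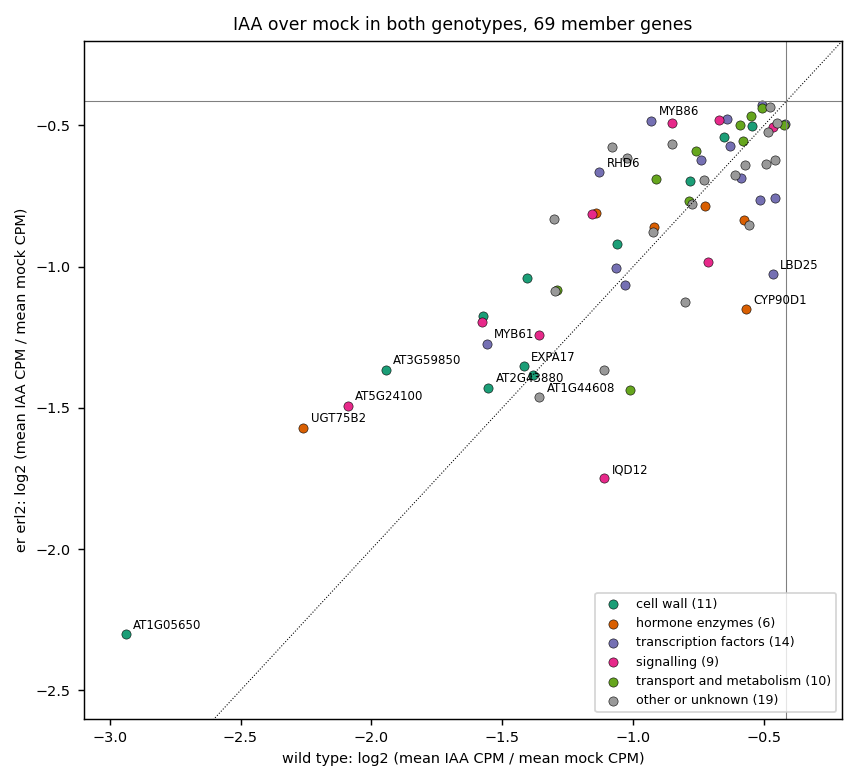
Each point is a member, placed by log2 of the mean IAA CPM over the mean mock CPM in wild type (x axis) and in er erl2 (y axis), and coloured by role, with the number of genes per role in the key. The grey lines mark the ratio of 0.75 and the dotted line equal ratios, and AT1G05650 lies lowest on both axes at -2.94 and -2.30.

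The members were weakly expressed. Their mean CPM ran from 1.1 to 24.2 with a median of 4.27, beside a median of 18.1 over all genes of at least 1 CPM. Per kilobase of exon the medians were 2.91 and 9.91 CPM. The level was under 10 CPM for 57 members, under 5 CPM for 38 and under 2 CPM for 11, and all 69 passed the count filter of the fit. The gap between the groups was often narrow. The lowest mock replicate was a median of 1.22 times the highest IAA replicate in wild type and 1.27 times in er erl2, and it was under 1.1 times for 16 and 12 members. The widest gap was at AT1G05650 in both genotypes, 2.94 and 3.63 times. NF-YC13, TPPB and WRKY31 lay just inside the ratio limit, with a higher ratio of 74.4%, 74.6% and 74.8% of mock. GXM2, AT1G28070 and SCL28 lay just outside, at 75.5%, 75.5% and 76.1%.

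**Figure D2:**
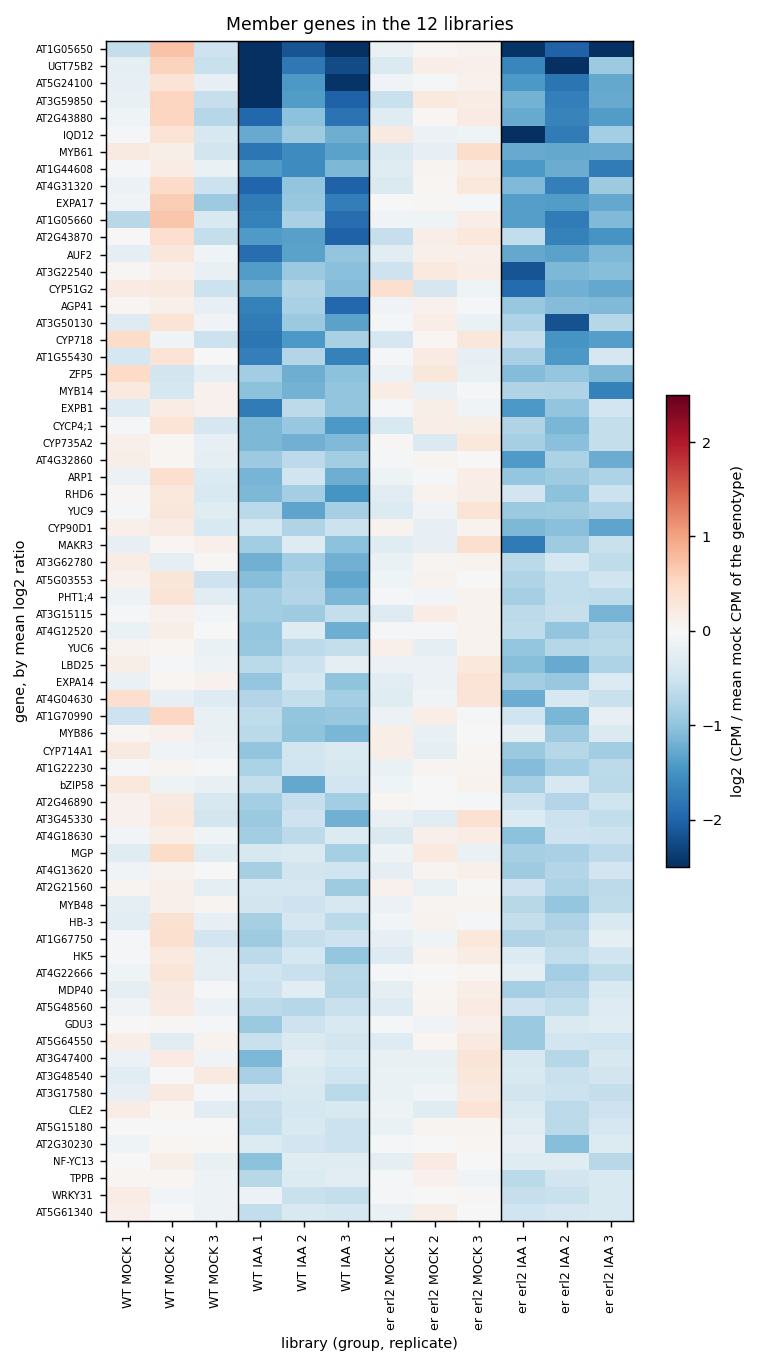
Each row is a member, ordered by its mean log2 ratio, and each column a library. Colour gives log2 of CPM over the mean mock CPM of the same genotype, with the scale ending at -2.5 and 2.5, so lower values share the darkest blue. All 69 members were below the mock mean in each of the 6 IAA libraries, and in wild-type mock replicate 3 the median member was at -0.19.

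The members were sorted by annotated role after their values had been seen. The groups hold 11 cell wall genes, 6 hormone enzymes, 14 transcription factors, 9 signalling genes, 10 transport and metabolism genes and 19 others or genes of unknown function. The median IAA level was lowest in the cell wall group, at 37.8% of mock in wild type and 44.3% in er erl2. It was 46.3% and 50.6% for signalling genes, 56.7% and 55.6% for hormone enzymes, and 64.4% and 62.6% for transcription factors. Transport and metabolism genes had medians of 62.7% and 67.3%, and the remainder 58.4% and 62.7%.

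The 5 members of the pectin lyase-like superfamily, which includes the polygalacturonases that cut pectin in the wall, were among the most lowered genes. AT1G05650, the gene with the lowest ratio, was at 3.1, 7.67 and 3.26 CPM in wild-type mock and at 0.322, 1.05 and 0.456 CPM under IAA, the last values resting on 11, 35 and 14 counts. In er erl2 it was at 6.15, 7.12 and 7.34 CPM in mock and 1.26, 1.69 and 1.23 CPM under IAA. Every IAA library was far below every mock library of its genotype, and wild-type mock replicate 2 stood above the other 2 libraries. Its fitted log2 fold changes were -2.90 (SE 0.432, wild type) and -2.28 (SE 0.380, mutant). Spread evenly over the 30 min, the ratios of the means equal a halving every 10.2 min and every 13.0 min. With a single time point this only restates the ratios and is not a measured rate of RNA decay. Its neighbour AT1G05660 was more strongly expressed, at 7.54, 19.6 and 9.37 CPM in wild-type mock and 3.80, 6.95 and 3.26 CPM under IAA. In er erl2 the mock values were 14.0, 13.9 and 16.8 CPM and the IAA values 5.73, 4.43 and 6.94 CPM. Both genotypes kept about the same share of mock, 38.4% and 38.3%.

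The 3 other pectin lyase-like members had similar ratios. AT3G59850 was at 3.39, 5.60 and 2.58 CPM in wild-type mock and 0.585, 1.48 and 0.945 CPM under IAA, and in er erl2 at 3.53, 6.16 and 5.89 CPM and 2.29, 1.60 and 2.16 CPM. AT2G43880 had mock means of 11.2 ± 4.76 and 12 ± 2.05 CPM in wild type and er erl2 (SD, n = 3) and IAA means of 3.82 ± 1.44 and 4.47 ± 0.640 CPM. AT2G43870 had mock means of 5.33 ± 1.81 and 6.16 ± 1.79 CPM and IAA means of 1.79 ± 0.423 and 2.73 ± 1.15 CPM. The levels of these genes under IAA were 26% to 34.1% of mock in wild type and 37.2% to 44.3% in er erl2. The product name pectin lyase-like was shared by 49 genes of at least 1 CPM, so the 5 members are 10.2% of them. Of the other 44, the median log2 fold change under IAA was -0.03 in wild type and -0.11 in the mutant. In each genotype, 4 of these 44 were below 0.75 of mock. AT3G26610 (64.3% and 61.3% of mock) and AT4G24780 (73.8% and 70.0%) were below it in both genotypes. They missed the rule because wild-type replicates overlapped.

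AT2G43890, the next gene after AT2G43880, was chosen here after its values were seen. It had 29, 102 and 7 counts in wild-type mock and 2, 17 and 3 under IAA, and in er erl2 108, 116 and 138 counts in mock and 27, 23 and 28 under IAA. Wild-type mock replicate 3 lay below IAA replicate 2, so the gene missed the rule. Its log2 fold changes were -2.75 (SE 0.904, edgeR adjusted p = 0.310) and -2.15 (SE 0.701, adjusted p = 0.247), neither past the threshold.

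Pairs of neighbouring genes hold 4 of these pectin lyase-like members. AT1G05650 (chr1:1690002-1692179, minus strand) and AT1G05660 (chr1:1694070-1696191, minus strand) are 1890 bases apart with no protein-coding gene between them, and their coding sequences are 90.9% identical, so reads may be shared between them. AT2G43870 (chr2:18166336-18168381, minus strand) and AT2G43880 (chr2:18172889-18174705, plus strand) are divergent neighbours with 4507 bases between their starts. AT3G59850 is on chromosome 3, and its nearest relative by coding sequence is AT2G43870 at 79.8% identity. The 300 bases before the annotated start of each gene are printed because these related genes all met the rule, in RefSeq's TAIR10.1 assembly and in the direction of transcription. The windows are chr1:1692180-1692479, chr1:1696192-1696491, chr3:22111733-22112032 and chr2:18168382-18168681 on the minus strand and chr2:18172589-18172888 on the plus strand. Capitals mark matches, on either strand, to TGTCTC and TGTCGG (auxin response elements), CACGTG and CACATG (bHLH E-box forms) and TTGAC (the W-box core).
AT1G05650: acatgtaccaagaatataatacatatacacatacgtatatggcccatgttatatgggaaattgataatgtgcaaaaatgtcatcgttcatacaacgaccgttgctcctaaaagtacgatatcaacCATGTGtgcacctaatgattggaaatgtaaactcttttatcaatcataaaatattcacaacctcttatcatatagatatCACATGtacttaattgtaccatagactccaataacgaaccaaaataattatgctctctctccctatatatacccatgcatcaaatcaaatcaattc
AT1G05660: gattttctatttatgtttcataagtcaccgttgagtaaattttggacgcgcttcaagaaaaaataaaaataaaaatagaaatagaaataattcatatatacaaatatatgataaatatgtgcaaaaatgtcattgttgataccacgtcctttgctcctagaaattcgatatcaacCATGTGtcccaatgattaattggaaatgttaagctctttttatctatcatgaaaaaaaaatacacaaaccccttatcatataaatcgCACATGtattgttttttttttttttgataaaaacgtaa
AT3G59850: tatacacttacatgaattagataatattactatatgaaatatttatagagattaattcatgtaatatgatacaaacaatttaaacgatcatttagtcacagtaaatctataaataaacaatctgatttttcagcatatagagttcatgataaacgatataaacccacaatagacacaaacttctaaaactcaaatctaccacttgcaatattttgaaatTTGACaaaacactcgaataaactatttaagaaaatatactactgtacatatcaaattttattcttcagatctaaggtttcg
AT2G43870: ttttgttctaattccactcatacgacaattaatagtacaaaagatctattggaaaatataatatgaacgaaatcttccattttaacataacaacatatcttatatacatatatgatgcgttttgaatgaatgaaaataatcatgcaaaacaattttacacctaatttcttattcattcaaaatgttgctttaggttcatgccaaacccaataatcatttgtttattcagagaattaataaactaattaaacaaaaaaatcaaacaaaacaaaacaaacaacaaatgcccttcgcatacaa
AT2G43880: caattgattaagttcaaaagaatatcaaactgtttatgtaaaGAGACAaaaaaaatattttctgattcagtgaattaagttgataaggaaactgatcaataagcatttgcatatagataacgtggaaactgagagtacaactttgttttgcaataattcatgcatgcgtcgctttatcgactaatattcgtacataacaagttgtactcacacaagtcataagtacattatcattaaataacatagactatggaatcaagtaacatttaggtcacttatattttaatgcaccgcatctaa

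The windows of AT1G05650 and AT1G05660 each hold CACATG on both strands, 96 and 175 bases before the start in the former and 38 and 125 in the latter. The longest run of letters shared by these windows was 17 bases, against 8 to 10 in the other 9 pairings of the 5 windows. Aligned end to end, the windows were 52.3% to 58.4% identical in all 10 pairings, and the coding sequences 57.6% to 90.9%. An end-to-end alignment of fixed windows can understate stretches that are alike but shifted. The CACATG matches of AT1G05650 and AT1G05660 lie at such shifted positions. How alike the upstream regions are is therefore not read from these percentages. AT2G43880 has TGTCTC on the reverse strand 258 bases before its start and AT3G59850 has TTGAC 81 bases before its start. The window of AT2G43870 holds none of the marked motifs. Over the 68 members with a window, CACATG was found in 20.6%, against 13.1% of the 18734 windows of genes with at least 1 CPM. TGTCTC was in 13.2% against 12.8%, TTGAC in 47.1% against 50.3%, and CACGTG in 1.47% against 7.98%. TGTCGG was in 0 of 68 windows, against 5.47%. The 6 further strings were searched on both strands. The shares were 2.94% against 5.79% for AAATATCT, 1.47% against 2.35% for GCCGCC, 22.1% against 21.9% for TGACG, 16.2% against 26.3% for ACGTG, which lies within CACGTG, 61.8% against 52.0% for TATAAA, and 16.2% against 22.4% for TCTCTC. The median GC content was 29.2% in the members' windows and 31.3% over all 18734 windows, the members' included. A match describes the letters only.

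The 3 expansin members, proteins that loosen the wall without cutting it, are among 22 expansin genes with at least 1 CPM. EXPA17 was at 13.0, 21.0 and 7.30 CPM in wild-type mock and 4.12, 7.16 and 4.17 CPM under IAA. In er erl2 it was at 25.2, 25.5 and 24.4 CPM in mock and 9.63, 9.48 and 10.3 CPM under IAA. The mutant libraries were higher than the wild-type libraries under both treatments, without overlap, and the mutant replicates were close together where the wild-type ones were spread. EXPA14 went from 5.77 ± 0.592 to 3.36 ± 0.771 CPM in wild type and from 6.90 ± 1.66 to 4.26 ± 1.00 CPM in er erl2. EXPB1 went from 3.42 ± 0.607 to 1.64 ± 0.577 CPM and from 3.25 ± 0.307 to 1.72 ± 0.565 CPM. EXPA17 and EXPA14 have been described as targets of LBD18, a regulator of lateral root emergence. The other 19 expansins tested had a median log2 fold change under IAA of 0.07 in wild type, where none was called, and of 0.15 in er erl2, where 2 were called higher and none lower. In er erl2, EXPA12 rose by 4.56 (SE 0.910, adjusted p = 0.0324) and EXPA15 by 0.59 (SE 0.131, adjusted p = 0.0401) on the log2 scale in edgeR's test. EXPA12 had only 1, 3 and 3 counts in er erl2 mock, so its fitted change depends on the prior count. In wild type their changes were 0.57 (SE 0.546) and 0.08 (SE 0.130), not past the threshold.

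The other cell wall members were AGP41, an arabinogalactan peptide, the pectate lyase AT1G67750 and AT3G47400, of the pectin methylesterase inhibitor superfamily. AGP41 was at 37.8% and 48.7% of mock in wild type and er erl2, AT1G67750 at 63.6% and 68.7%, and AT3G47400 at 68.6% and 70.6%. AGP41 starts 521 bases after the end of another member, the kinase gene AT5G24100, on the same strand.

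**Figure D3:**
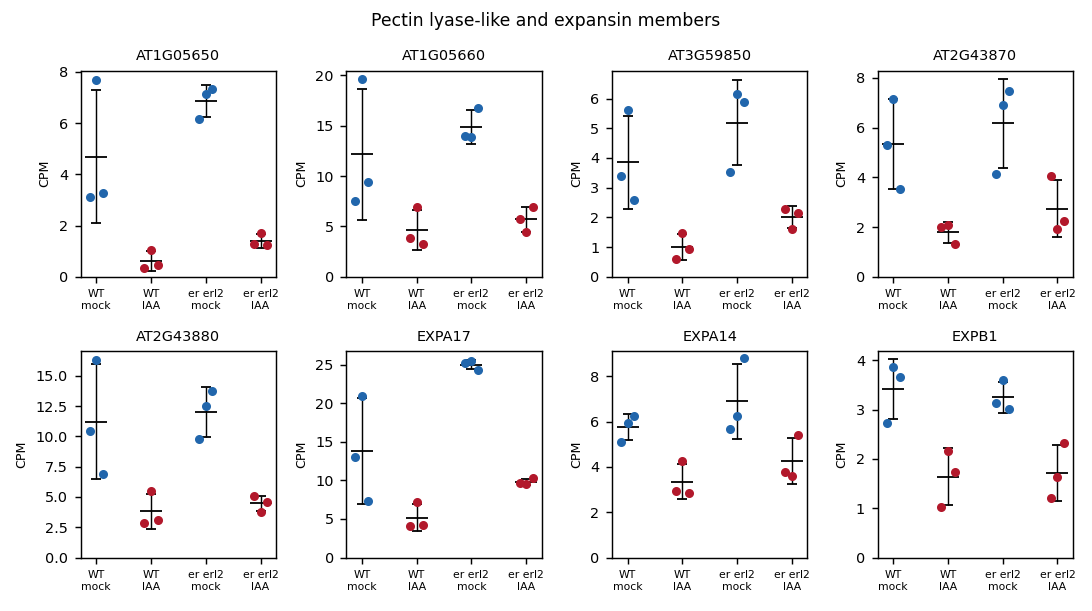
CPM of the pectin lyase-like and expansin members in the 12 libraries, with a panel per gene, points for libraries (blue for mock, red for IAA), and the mean with its SD (n = 3). In each panel the IAA points lie below the mock points of the same genotype, and EXPA17 is higher in er erl2 than in wild type under both treatments.

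The hormone enzymes belong to 4 pathways, those of auxin, cytokinin, brassinosteroid and gibberellin. UGT75B2, a glucosyltransferase able to conjugate IAA in vitro, was at 2.73, 4.77 and 2.21 CPM in wild-type mock and 0.410, 0.933 and 0.685 CPM under IAA. Mutant libraries gave 2.77, 3.99 and 3.91 CPM in mock and 1.15, 0.554 and 1.89 CPM under IAA. The 2 genotypes overlapped under each treatment, and its log2 ratios of -2.26 and -1.57 were the widest apart of the 69 members. YUC6 and YUC9 encode flavin monooxygenases of the last step of IAA synthesis. YUC6 was at 8.07, 7.88 and 6.79 CPM in wild-type mock and 3.95, 4.82 and 4.99 CPM under IAA, and in er erl2 at 10.8, 8.42 and 10.6 CPM and 5.07, 6.06 and 6.21 CPM. YUC9 was at 52.8% of mock in wild type and 55.1% in er erl2. Of the other YUC genes tested, YUC3 had log2 fold changes of -0.61 (SE 0.251) and -0.68 (SE 0.265) and YUC8 of -0.48 (SE 0.158) and -0.65 (SE 0.162), which were not past the threshold in edgeR (adjusted p = 0.444, 0.328, 0.263 and 0.0665). YUC5, the closest relative of YUC9, was at -0.08 (SE 0.154) and 0.04 (SE 0.155). In the list of 41 genes of auxin synthesis, transport and perception, 38 were tested, and 3 were called higher in each genotype, where 1.06% and 1.29% of all genes were. The 1 lower call in each genotype was at a member, and nothing is read from it, since the rule used these contrasts. The fitted changes of YUC6 were -0.70 (SE 0.138) and -0.77 (SE 0.134), close to those of YUC3.

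CYP735A2 makes trans-zeatin forms of cytokinin by hydroxylation. It was at 14.4, 13.8 and 11.5 CPM in wild-type mock and 6.11, 5.72 and 6.16 CPM under IAA, and in er erl2 at 11.6, 8.95 and 13.8 CPM and 6.42, 5.57 and 7.63 CPM. The IAA libraries of wild type were tightly grouped below all mock libraries. Its closest relative, CYP735A1, was at 0.921 CPM, with log2 fold changes of -0.93 (SE 0.313, adjusted p = 0.279) and -1.25 (SE 0.310, adjusted p = 0.0648). Among 24 tested genes of cytokinin response and turnover, 4 were called higher in each genotype. The cytokinin oxidases CKX1, CKX3 and CKX6, which degrade the hormone, were among them. In edgeR, CKX1 rose by 1.00 (SE 0.174, adjusted p = 0.00711) in wild type and 1.80 (SE 0.183, adjusted p = 5.87e-05) in er erl2, and CKX3 by 1.89 (SE 0.320, adjusted p = 0.00553) and 2.57 (SE 0.363, adjusted p = 0.000974).

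CYP90D1 and CYP714A1 are P450 enzymes of brassinosteroid synthesis and of gibberellin inactivation. CYP90D1 was at 13.7, 14.5 and 9.71 CPM in wild-type mock and 9.33, 7.53 and 8.70 CPM under IAA, with wild-type mock replicate 3 just above the highest IAA library. Mutant libraries were at 14.8, 12.1 and 14.8 CPM in mock and 6.39, 6.78 and 5.61 CPM under IAA, a wider gap. CYP714A1 went from 4.46 ± 0.673 to 3.00 ± 0.656 CPM in wild type and from 5.95 ± 0.786 to 3.33 ± 0.255 CPM in er erl2. Among 21 tested brassinosteroid and gibberellin genes that are no members, 5 were called higher and 1 lower in wild type, and 4 higher and 1 lower in er erl2. BAS1, which inactivates brassinosteroids, rose by 1.20 (SE 0.0833, adjusted p = 1.40e-06) and 1.43 (SE 0.0842, adjusted p = 4.93e-07), and the gibberellin synthesis gene GA20OX1 by 2.37 (SE 0.262, adjusted p = 0.000113) and 1.84 (SE 0.247, adjusted p = 0.000642). The lower calls were at the brassinosteroid synthesis genes BR6OX1 in wild type (-1.53, SE 0.330, adjusted p = 0.0345) and ROT3 in er erl2 (-0.48, SE 0.0788, adjusted p = 0.00378). DWF4, another synthesis gene, rose under IAA in er erl2 by 0.54 (SE 0.0981, adjusted p = 0.00882), and its change in wild type was 0.42 (SE 0.0977, adjusted p = 0.0560), just short of the threshold.

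**Figure D4:**
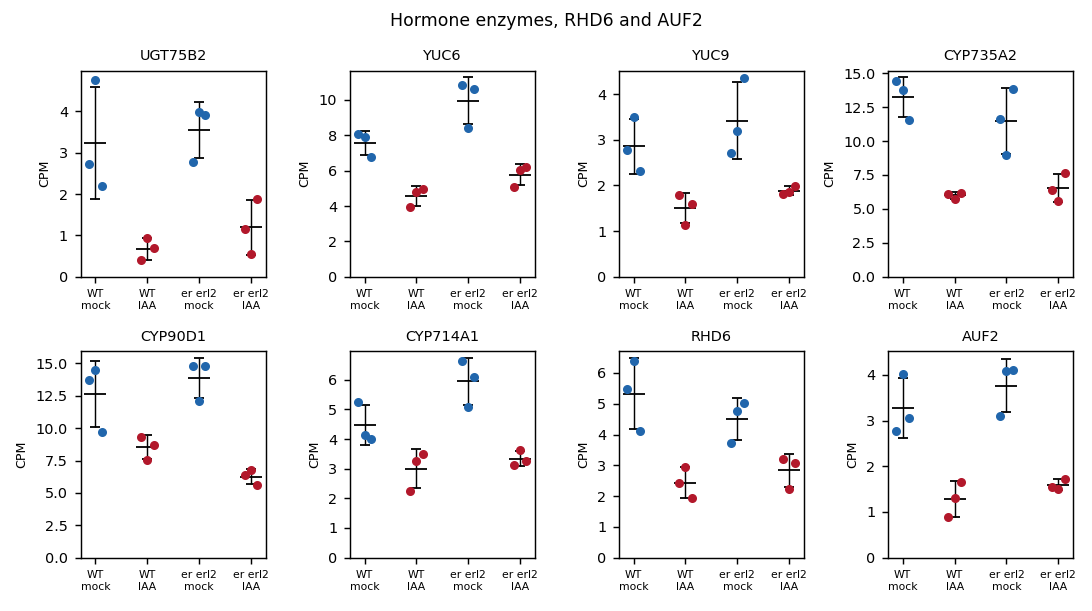
CPM of the 6 hormone enzyme members and of RHD6 and AUF2 in the 12 libraries, with points for libraries (blue for mock, red for IAA) and the mean with its SD (n = 3). CYP735A2 went from a mean of 13.2 to 6.0 CPM in wild type, and CYP90D1 from 13.9 to 6.26 CPM in er erl2.

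The 14 transcription factors were MYB61, ZFP5, MYB14, RHD6, LBD25, MYB86, bZIP58, MGP, AT4G13620, MYB48, HB-3, AT5G48560, NF-YC13 and WRKY31. MYB61, known for roles in stomatal closure and xylem, had the lowest ratios. It was at 3.46, 3.28 and 2.14 CPM in wild-type mock and 0.848, 0.993 and 1.17 CPM under IAA, and in er erl2 at 2.43, 2.7 and 4.19 CPM and 1.29, 1.27 and 1.29 CPM. ZFP5 promotes root hair and trichome formation, and it was at 48.9% of mock in wild type and 47.8% in er erl2. RHD6, the bHLH protein that starts root hair development, was at 5.47, 6.39 and 4.11 CPM in wild-type mock and 2.43, 2.95 and 1.92 CPM under IAA. In er erl2 RHD6 was at 3.72, 4.76 and 5.02 CPM in mock and 3.21, 2.22 and 3.09 CPM under IAA, a smaller gap. RSL1, which acts with RHD6, had log2 fold changes of -2.29 (SE 0.621, adjusted p = 0.129) and -1.57 (SE 0.657, adjusted p = 0.369) at a mean of 0.312 CPM, not past the threshold. RHD6 was the only member among the 28 tested root hair genes. The later regulator RSL4 was at 0.12 (SE 0.218) and 0.40 (SE 0.227). The summed level of the 7 root hair cell markers, RHD6 included, was 102 to 129.7 CPM in wild-type mock, 90.1 to 107 CPM in wild-type IAA, 74.5 to 90.3 CPM in er erl2 mock and 66.6 to 89.8 CPM in er erl2 IAA, with none at 0. The part of root hair cell number in these values was not tested.

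LBD25, also named DOWN IN DARK AND AUXIN1, was at 8.17, 7.26 and 6.82 CPM in wild-type mock and 4.68, 5.09 and 6.36 CPM under IAA, a near overlap. The mutant values were 7.38, 7.32 and 9.74 CPM in mock and 3.87, 3.39 and 4.75 CPM under IAA, well apart. MGP, a zinc finger protein of the SHORT-ROOT and SCARECROW pathway in the root, was at 70.0% and 58.9% of mock. The bHLH gene AT5G48560 was the most abundant member at 24.2 CPM, or 10.8 CPM per kilobase. Its mock libraries spanned 26.1 to 32.9 CPM in wild type and 23.1 to 33.0 CPM in er erl2, and its IAA libraries 17.5 to 19.5 CPM and 18.9 to 23.1 CPM. In er erl2 the lowest mock and the highest IAA library were both at 23.1 CPM after rounding.

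Among signalling genes, the leucine-rich repeat kinase AT5G24100 had the lowest ratio in wild type. It was at 5.86, 8.54 and 5.87 CPM in wild-type mock and 1.02, 2.5 and 1.24 CPM under IAA, and in er erl2 at 6.06, 6.29 and 6.95 CPM and 2.38, 1.82 and 2.65 CPM. The groups stood clearly apart in both genotypes. The SAUR-family gene AT4G31320 belongs to a family better known for genes that auxin raises. It was at 8.96, 13.9 and 6.82 CPM in wild-type mock and 2.49, 5.0 and 2.44 CPM under IAA, and it was at 43.7% of mock in er erl2. The other kinase-related members were AT3G45330, a lectin receptor kinase, HK5, a histidine kinase reported in stomatal closure, and MAKR3, a membrane-associated kinase regulator, at 50.6% to 71.7% of mock. CYCP4;1, a P-type cyclin, was at 44.8% and 56.8%, and the secreted peptide gene CLE2 at 72.4% and 70.5%.

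AUF2 encodes an F-box protein. It was at 2.77, 4.01 and 3.06 CPM in wild-type mock and 0.878, 1.29 and 1.66 CPM under IAA, and in er erl2 at 3.1, 4.09 and 4.10 CPM and 1.55, 1.5 and 1.73 CPM. Its closest relative AUF1, named AUXIN UP-REGULATED F-BOX PROTEIN1 and 70.9% identical in coding sequence, moved the other way. In edgeR's test AUF1 rose by 2.04 (SE 0.130, adjusted p = 5.18e-06) in wild type and 1.82 (SE 0.129, adjusted p = 1.60e-05) in er erl2, at a mean of 152 CPM. The neighbours of these genes are related as well. AUF2 lies next to the member AT1G22230, whose relative AT1G78110 lies next to AUF1 and was at 0.11 (SE 0.0949) and -0.05 (SE 0.0961). On the other side of AUF1 lies the member TPPB, a trehalose-6-phosphate phosphatase, whose relative TPPC beside AUF2 was listed at 0 counts in all 12 libraries. Whether that 0 comes from the gene's level or from how reads were counted was not tested, and TPPC could not have met the rule.

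For 41 members a relative aligned over at least 50% of the coding sequence. For 4 of them, all pectin lyase-like, that relative was itself a member. The other 37 relatives include 30 that were tested, and their IAA effects had medians of -0.11 in wild type and -0.15 in the mutant on the log2 scale. AUF1 was the only one called higher in each genotype, and MYB59, the relative of MYB48, the only one called lower in er erl2 (-0.58, SE 0.111, adjusted p = 0.0173). AT4G12520, a lipid-transfer family gene, is 99.5% identical to its relative AT4G12510, so the split of reads between them is uncertain, and AT4G12510 was at -0.57 (SE 0.268) and -0.55 (SE 0.388).

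Of the transport and metabolism genes, the phosphate transporter PHT1;4 was at 24.3, 33.2 and 22.0 CPM in wild-type mock and 14.4, 15.9 and 12 CPM under IAA. The mutant values were 25.5, 25.0 and 28.0 CPM in mock and 14.7, 17.0 and 17.0 CPM under IAA, the same pattern. PHT1;1, the main root phosphate transporter, was at 0.05 (SE 0.0805) and -0.13 (SE 0.0808) on the log2 scale. GDU3, a regulator of amino acid export, was at 66.4% and 70.8% of mock, and TPPB, near the limit of the rule in wild type, at 74.6% and 70.8%. CYP718, a P450 of unknown substrate, was at 40.9% and 47.2%, and CYP51G2, a transcribed pseudogene and the only member that is not protein-coding, at 49.6% and 36.9%. The deaminase-family gene AT3G48540, the peroxidase-family gene AT5G15180 and AT2G46890 were at 59.0% to 70.3% of mock in wild type and at 66.5% to 73.9% in er erl2. Among the 19 others, AT1G44608, AT3G22540, AT3G50130 and AT1G55430 had the lowest ratios in wild type, 39.0% to 46.4% of mock, and were at 36.3% to 56.3% in er erl2. In er erl2, AT4G32860 (45.9%) was lower than 2 of these 4. Beside AT4G32860, the remaining ones were the RNA-binding protein gene ARP1, the microtubule-associated MDP40, AT3G62780, AT5G03553, AT3G15115, AT4G04630, AT1G70990, AT1G22230, AT4G18630, AT2G21560, AT5G64550, AT3G17580 and AT2G30230. With AT4G32860 they were at 47.3% to 73.2% of mock in wild type and at 45.9% to 71.1% in er erl2. AT5G61340, an uncharacterized gene at a mean of 16.3 CPM, was at 71.8% and 74.0%.

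The rule did not compare the genotypes, and genotype was tested over all 21376 genes. The rule's level limit was a mean over the libraries of both genotypes, so a member can clear it through the genotype where it is higher. IQD12, CYP51G2 and AT3G50130 cleared it only through wild type, and AT3G62780 only through er erl2. All of them are among the calls below, so the rule helped to choose these calls and the counts are descriptions. Averaged over mock and IAA, 19 of the 69 members differed between er erl2 and wild type in edgeR's test (27.5%), close to the background of 27.8% of all genes. Of these, 11 were higher in er erl2, beside 14.1% of all genes, and 8 lower, beside 13.7%, and the median log2 difference of the members was 0.07 against -0.008 over all genes. Under mock alone 8 members differed (11.6%), beside a background of 15.7%, and under IAA alone 7 differed, beside 14.0%. The count under mock was 5 without wild-type mock replicate 3 or er erl2 mock replicate 2 and 3 without er erl2 mock replicate 3. The count under IAA was 11 without wild-type mock replicate 3 and 4 without er erl2 IAA replicate 2 or 3. The summed level of 8 stomatal lineage markers moved with genotype, at 39.8 to 46.9 CPM in wild-type mock and 101 to 114 CPM in er erl2 mock, with none at 0. Under mock, 6 guard cell markers (58.4 to 66.9 against 81.3 to 86.1 CPM) and 6 mesophyll and chloroplast markers (31191 to 32391 against 35221 to 36655 CPM) were higher in er erl2 without overlap too. The 7 root hair cell markers, given above, were lower there, and the 6 other marker lists overlapped between the genotypes under mock. The part of tissue composition in the members' genotype differences was not tested.

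The largest genotype difference was at IQD12, a calmodulin-binding IQ-domain protein. It was at 2.87, 3.73 and 2.24 CPM in wild-type mock and 1.23, 1.60 and 1.27 CPM in wild-type IAA. In er erl2 it was at 0.768, 0.599 and 0.614 CPM in mock and 0.0287, 0.195 and 0.365 CPM under IAA, the last resting on 1, 6 and 11 counts. All mutant libraries lay below all wild-type libraries, and mock er erl2 was below wild type under IAA. The mean log2 difference was -2.47 (SE 0.279, adjusted p = 1.58e-05), and it was the only member called with a difference of at least 1. IQD12 reached the level limit of 1 CPM only through the wild-type libraries, so this difference is a description and nothing is read from its p-value.

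Among members higher in er erl2, TPPB was at 14.2, 14.2 and 12.6 CPM in wild-type mock and 22.4, 24.7 and 21.7 CPM in mutant mock, and at 8.45, 10.8 and 11.3 CPM against 14.4, 16.6 and 17.7 CPM under IAA. Its mutant level under IAA was thus above the wild-type mock level, and the mean difference was 0.72 (SE 0.0782, adjusted p = 1.06e-05). AT4G13620, an AP2/ERF-family factor, was at 9.80 ± 0.592 CPM in wild-type mock and 17.5 ± 2.15 CPM in mutant mock, and at 6.53 ± 0.892 and 10.9 ± 1.62 CPM under IAA. Its mean difference was 0.80 (SE 0.0906, adjusted p = 1.58e-05). GDU3 differed by 0.70 (SE 0.111, adjusted p = 0.000512) and AT4G18630, of unknown function, by 0.69 (SE 0.138, adjusted p = 0.00189), each without overlap between genotypes under either treatment. YUC6 was higher by 0.38 (SE 0.0960, adjusted p = 0.00887) and EXPA17 by 0.91 (SE 0.230, adjusted p = 0.0158).

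The other higher members were AT3G62780, AT5G64550, AT1G67750, AT3G59850 and AT1G05650. The calls for AT3G59850 (0.74, SE 0.242, adjusted p = 0.0383) and AT1G05650 (0.89, SE 0.293, adjusted p = 0.0419) were lost in 8 and 10 of the 12 fits that left out 1 library, with adjusted p up to 0.0875 and 0.0993. Those for AT5G64550 and AT1G67750 were lost in 6 and 7 of the 12. The lower members beside IQD12 were AT4G22666, a lipid-transfer family gene (-0.52, SE 0.111, adjusted p = 0.00321), AT4G12520, CYP51G2, AT3G50130, AT2G30230, AT2G21560 and WRKY31, at -0.87 to -0.27. The calls for AT2G21560 and WRKY31 were lost in 6 and 7 of the 12. As at IQD12, nothing is read from the calls at CYP51G2, AT3G50130 and AT3G62780, which cleared the level limit through the higher genotype only. Under IAA, CYP51G2 and AT3G50130 had means of 0.445 and 0.487 CPM in er erl2, and 0.928 and 0.838 CPM in wild type. AT3G62780 had means of 0.601 CPM in wild type and 1.07 CPM in er erl2 under IAA. AT4G12510, 99.5% identical to AT4G12520, was lower in er erl2 by more, at -2.53 (SE 0.229, adjusted p = 1.78e-06 in edgeR). The split of reads between them is uncertain, so the call at AT4G12520 is uncertain too.

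**Figure D5:**
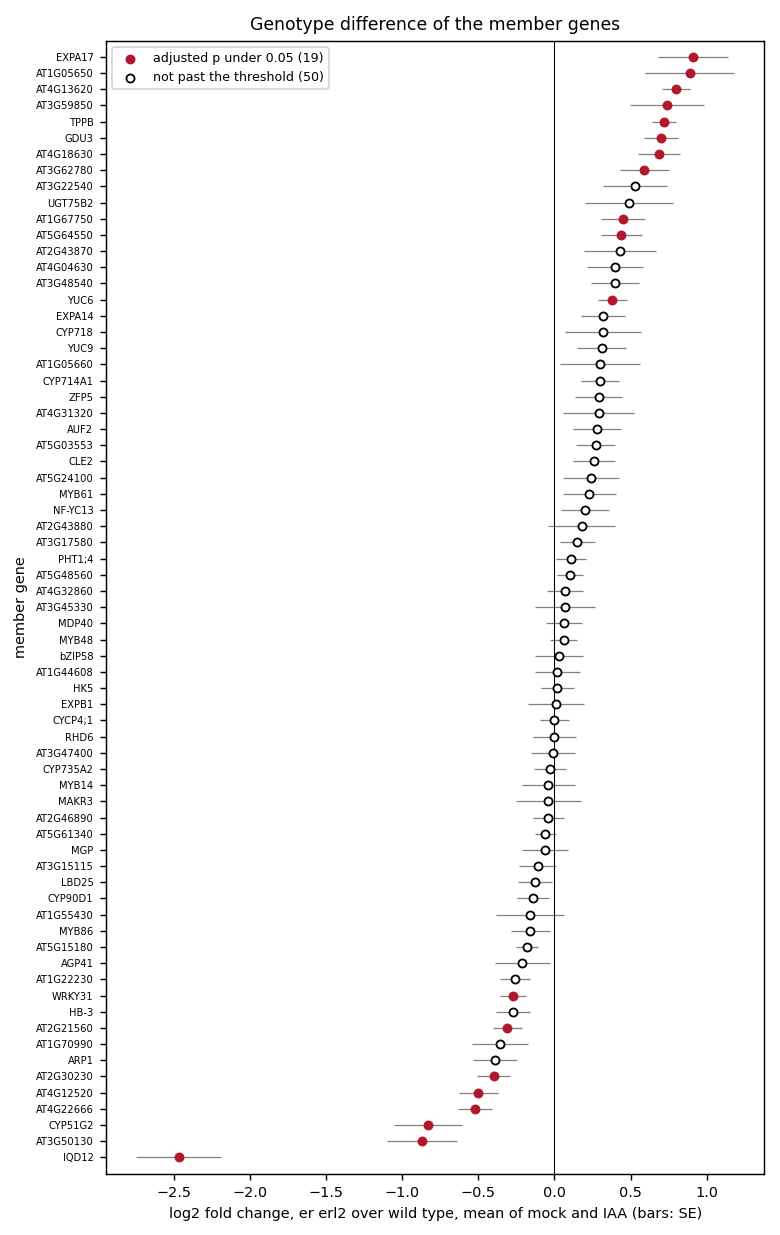
Log2 fold change of er erl2 over wild type, averaged over mock and IAA, with its SE, for the 69 members (edgeR). The 19 filled points passed an adjusted p of 0.05, and IQD12 lies apart from the rest at -2.47.

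The genes whose IAA ratio differed most between genotypes were UGT75B2 (log2 ratio -2.26 in wild type and -1.57 in er erl2), AT1G05650 (-2.94 and -2.30) and IQD12 (-1.11 and -1.75). The ratios are given side by side, because both contrasts chose the members.

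Some features that the rule did not use are given here beside their background. Members were short in exon number, with a median of 2 exons against 5 over the 19158 annotated genes of at least 1 CPM, and 33.3% had a single exon against 13.4%. The median exon length was 1534 bases against 1800.0. They lay on all 5 chromosomes in shares of 14.5% to 26.1%, beside 15.1% to 26.2% for all such genes. By product name, cytochrome P450 proteins made up 5.80% of members and 0.755% of the expressed genes, MYB proteins 5.80% and 0.521%, expansins 4.35% and 0.115%, and kinases 5.80% and 5.66%. The words xyloglucan (30 expressed genes), receptor (226), transcription factor (256) and polygalacturonase (4) were in no member's product name. These shares are descriptions of the chosen set. AT5G03553 and HK5 overlap another annotated gene.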

How the data were processed

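RNA-seq of whole Arabidopsis seedlings was measured in 12 libraries, 3 in each of 4 groups. The deposited table holds raw counts per gene. Per the labels' protocols, RNA was poly-A selected and libraries were stranded. Per the submitters' processing notes, the authors used bcl2fastq, STAR 2.7.6a, featureCounts 2.0.0 and TAIR10. The counting annotation and strand setting are not given in the sources used here.

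CPM used each column's total. edgeR 4.0.16 (R 4.3.3) fitted 1 mean per group on the counts with TMM factors (0.973 to 1.02), filterByExpr (21376 genes kept, all 69 members among them) and a robust quasi-likelihood test. P-values were adjusted by Benjamini-Hochberg over all genes tested and called under 0.05. The test gives no SE. Each SE printed is the absolute log2 fold change divided by the square root of the test's F value. It is approximate and unreliable where the change is very small. The fit was tested on simulated data. With 28930625 to 35837999 counts per library, 3 counts correspond to 0.0837 to 0.104 CPM, and counts limit the precision of members under 2 CPM. No 2 libraries of a group agreed within sampling noise. Gene names, positions and sequences came from RefSeq's TAIR10.1, since the table holds no coordinates. Relatives were found with blastn 2.17.0 on coding sequences.

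Genes named are the 20 with the lowest mean log2 ratio, members of the pathway lists, the 5 of highest mean CPM, up to 6 with the smallest genotype p, the 3 with the widest gap between genotypes, 3 on each side of the limit, and the transcription factors and kinases. Others were named after their values were seen. The members and lists were chosen with earlier results of these data known. Alternatives were other scalings, filters, limits, tests (DESeq2 1.42.0, limma-voom 3.58.1), replicate blocks and leaving out each library.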

Additional observations from a re-analysis of the deposited data

How the results depend on the processing

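The rule took 40 genes with a ratio limit of 0.67, 31 with a mean of at least 5 CPM, 188 where replicates might overlap, and 62 to 138 when each library was left out. The members' median log2 fold change under IAA stayed between -0.86 and -0.69 in wild type and between -0.80 and -0.70 in er erl2 over the same omissions. When a library was left out, the count of members differing between genotypes was 13 to 19 for the mean of both treatments. It was 3 to 9 under mock and 4 to 11 under IAA. With a minimum log2 difference of 1 the counts were 1, 1 and 1, each time IQD12. Under IAA the count was 12 by DESeq2's Wald test and 4 with only the groups compared in the fit. With a replicate block from the sample titles the counts were 20, 6 and 7. Same-numbered libraries showed no clear shared deviation, with r of -0.175 to 0.094 over genes in 18 pairs. With 3 libraries per group this check cannot exclude that samples were collected or processed in pairs. A block from the numbers in the column names, added after seeing the data, gave 15 for the mean and 5 under mock. The cause of these moves was not tested. None of the listed alternatives reversed the direction of a member's genotype call, and 11 of the 19 mean calls were kept in all 19 alternatives run on them. Among these 11 are IQD12, CYP51G2, AT3G50130 and AT3G62780, which cleared the level limit through the higher genotype only. Nothing is read from their calls, kept or not. Low counts limit members such as IQD12 and AT1G05650.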
